A study of Mus musculus with 2 samples.

Results

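Zbtb16-positive innate-like T cells of the mouse liver were taken here as cell barcodes that held at least 2 UMIs (counted RNA molecules) of Cd3d, Cd3e and Cd3g together and at least 1 UMI of Zbtb16 or Il4. Barcodes with Cd8b1, Cd79a or Clec4f, or with more than 1 UMI of the division genes Mki67 and Top2a or of Stab2 and Reln, were left out, as were Cd4-positive barcodes with Il4 and no Zbtb16. Cells were thus chosen by measured values, their Cd3, Zbtb16 and Il4 UMIs among others. The rule chose 338 of the 23889 barcodes that held at least 300 genes and at most 20% mitochondrial UMIs, out of 24537 barcodes in all. The knockout library gave 154 of these cells and the wild-type library 184.

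Zbtb16 encodes PLZF, the transcription factor that gives invariant natural killer T (NKT) cells and some gamma-delta T cells their ready-made effector state during development in the thymus. Invariant NKT cells carry a T cell receptor alpha chain built from a single joining segment, recognise lipids on CD1d, and can release interleukin-4 and interferon-gamma soon after they are triggered. They are far more frequent among lymphocytes of the mouse liver than of lymph nodes, and there they patrol the sinusoids and carry receptors shared with natural killer (NK) cells.

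The study profiled liver by droplet single-cell RNA sequencing in 1 library from SLC22A18-/- mice and 1 library from SLC22A18+/+ mice. Slc22a18 is an imprinted gene for a membrane transporter of the organic cation transporter family. Each library is described as a single sample of liver tissue; the sources used here do not give the strain, age or sex of the mice, how many there were, which exons were deleted or how the tissue was dissociated. With 1 library per genotype the comparison of genotypes has no replicates and no test, and its intervals (95%) cover counting error only.

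Both libraries were sequenced to a like depth, 103478998 UMIs in the knockout and 105556354 in the wild type. The innate-like T cells held a median of 5992 UMIs and 2355 genes per cell in the knockout library and 5668 UMIs and 2316 genes in the wild-type library. The 2 libraries shared 38 barcode sequences, none of them among the innate-like T cells. Slc22a18 itself gave 3 UMIs in these cells of the library labelled knockout and 5 in those of the library labelled wild type, and among barcodes without Cd3 UMIs it was detected in 11.995% and 12.4%, so its 3' counts do not tell the libraries apart and the genotypes rest on the labels.

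Zbtb16 (chr9:48654297-48836222, minus strand, GRCm38) chose nearly all of the cells. In the knockout library 120 cells had Zbtb16 alone, 32 had Zbtb16 and Il4, and 2 had Il4 alone; in the wild-type library the counts were 140, 41 and 3. The median cell held 5 Zbtb16 UMIs in the knockout library and 3 in the wild-type library, with at most 36 and 45. Summed over the cells, Zbtb16 stood at 1198 CPM (UMIs scaled to the same total in every library) in the knockout library and 1021 CPM in the wild-type library, and Il4 (chr11:53602982-53618669, minus strand) at 61.8 and 67.4 CPM. These levels follow from the rule and are a description. At the edge of the rule, 37 and 45 cells had a single Zbtb16 or Il4 UMI, and 177 and 260 otherwise alike T cell barcodes had none. B cells also held Zbtb16 UMIs, in 6.04% of them in the knockout library and 7.16% in the wild-type library. Their median depths were 3996 and 4265 UMIs. Il4 was found in 0.366% and 0.260% of B cells. Endothelial markers summed to 1128 and 1404 CPM in these B cells, against 141 and 134 CPM in the innate-like T cells. The part of free RNA or of doublets in these Zbtb16 UMIs, or at the edge of the rule, was not tested.

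Gata3 (chr2:9857078-9890034, minus strand), a transcription factor of T cells and of type 2 responses that the rule did not use, was checked as the remaining marker. It was detected in 39.6% of the innate-like T cells in the knockout library (exact interval 31.8 to 47.8) and in 37.0% in the wild-type library (30.0 to 44.4), against 0.366% and 0.651% of B cells. Among Cd4 T cells without Zbtb16 the shares were 31.2% and 29.6%, among Cd8b1 T cells 17.2% and 13.3%, and among NK/ILC1 cells, gated as Ncr1-positive with at most 1 Cd3 UMI, 11.8% and 14.5%. Gata3 was 3.99-fold higher than in Cd8b1 T cells (edgeR quasi-likelihood test, Benjamini-Hochberg adjusted p = 6.23e-09) and was not called against Cd4 T cells (adjusted p = 0.72) or against NK/ILC1 cells, where it was 2.13-fold higher with less than 2-fold in the wild-type library. The call thus held against Cd8b1 T cells alone of the 3 populations.

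Markers of other cells were present to different extents, and the rule itself had set Cd79a, Clec4f and Cd8b1 to 0. The 4 B cell markers summed to 2.13 and 7.29 CPM and the 5 basophil and mast cell markers to 1.07 and 1.82 CPM, with Mcpt8, Fcer1a and Ms4a2 at 0. Foxp3, the regulatory T cell factor, was found in 0 of 154 and 0 of 184 cells, which allows shares of cells with a UMI of up to 1.95% and 1.63% (3 cells of the total). It was sparse in Cd4 T cells too, 0 of 32 and 3 of 54, so cells that express it were not limited by this. The 5 ILC2 markers summed to 904 and 787 CPM, against 248 and 188 CPM in Cd4 T cells and 576 and 535 CPM in barcodes without Cd3 UMIs; nearly all of this was Rora, at 895 and 755 CPM, with Il5 at 0. All 5 hepatocyte markers were detected, with 3998 CPM in the knockout library and 3918 CPM in the wild-type library, about as much as the 6 T cell markers (3984 and 4495 CPM). Cd4 T cells held hepatocyte markers at 3984 and 4747 CPM and barcodes without Cd3 UMIs at 7265 and 8333 CPM. The part of this RNA in the results was not tested.

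Genes of both kinds of T cell receptor were detected. The alpha chain constant gene Trac was detected in 68.2% and 64.7% of the cells and Trdc (chr14:54142851-54148868, plus strand), the delta chain constant gene, in 12 of 154 cells (7.79%, 4.09 to 13.2) and 22 of 184 cells (11.96%, 7.65 to 17.5). NK/ILC1 cells held Trdc at about the same shares, 4 of 51 (7.84%) and 6 of 69 (8.70%), so a Trdc UMI does not by itself mark a gamma-delta T cell here. Trgc2, a gamma chain constant gene that alpha-beta T cells can also transcribe, was detected in 29.2% and 37.5%, against 0 of the Cd4 and Cd8b1 T cells. The 2 constant genes were seldom found together: Trac was detected in 3 of 12 and 4 of 22 cells with Trdc, against 71.8% and 71.0% of cells without it. None of the 22 and 30 Cd4-positive cells held a Trdc UMI.

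The joining segment of the invariant NKT receptor, Traj18, is short enough to show whole. Its letters are a part of the receptor alpha chain that invariant NKT cells share. It lies at chr14:54200777-54200842 (GRCm38, plus strand), between the delta chain constant gene and the alpha chain constant gene, and its transcript sequence in GENCODE vM21 is given 5′ to 3′, with the capitals marking the conserved Phe-Gly-X-Gly motif of joining segments at bases 33 to 43, a motif found on the coding strand in 42 of the 51 Traj segments of that annotation (82.4%).
Traj18: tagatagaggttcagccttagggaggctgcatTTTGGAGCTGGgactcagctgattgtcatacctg

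UMIs assigned to Traj18 were few. The knockout library held 28 in 20 innate-like T cells (13.0%, 8.12 to 19.3) and the wild-type library 34 in 30 cells (16.3%, 11.3 to 22.5). NK/ILC1 cells and B cells had 0, and the innate-like T cells were at least 4.18-fold higher than NK/ILC1 cells (edgeR adjusted p = 9.47e-05). With 0 UMIs in NK/ILC1 cells, Traj18 entered this test through the innate-like T cells alone and could be called in that direction only. NK/ILC1 cells were also gated on few Cd3 UMIs, so the call is a description. Cd4 T cells had Traj18 in 9.38% and 9.26% of cells and Cd8b1 T cells in 3.45% and 17.8%, and neither difference passed the test (adjusted p = 0.61 and 0.44). In a 3' library such UMIs need not come from a receptor that uses the segment, so Traj18 did not separate invariant NKT cells from other T cells here. Trav11, a variable segment of the same receptor, gave 2 UMIs in each library in the innate-like T cells and 0 in Cd4 T, Cd8b1 T, NK/ILC1 and B cells, too few to compare.

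**Figure D1:**
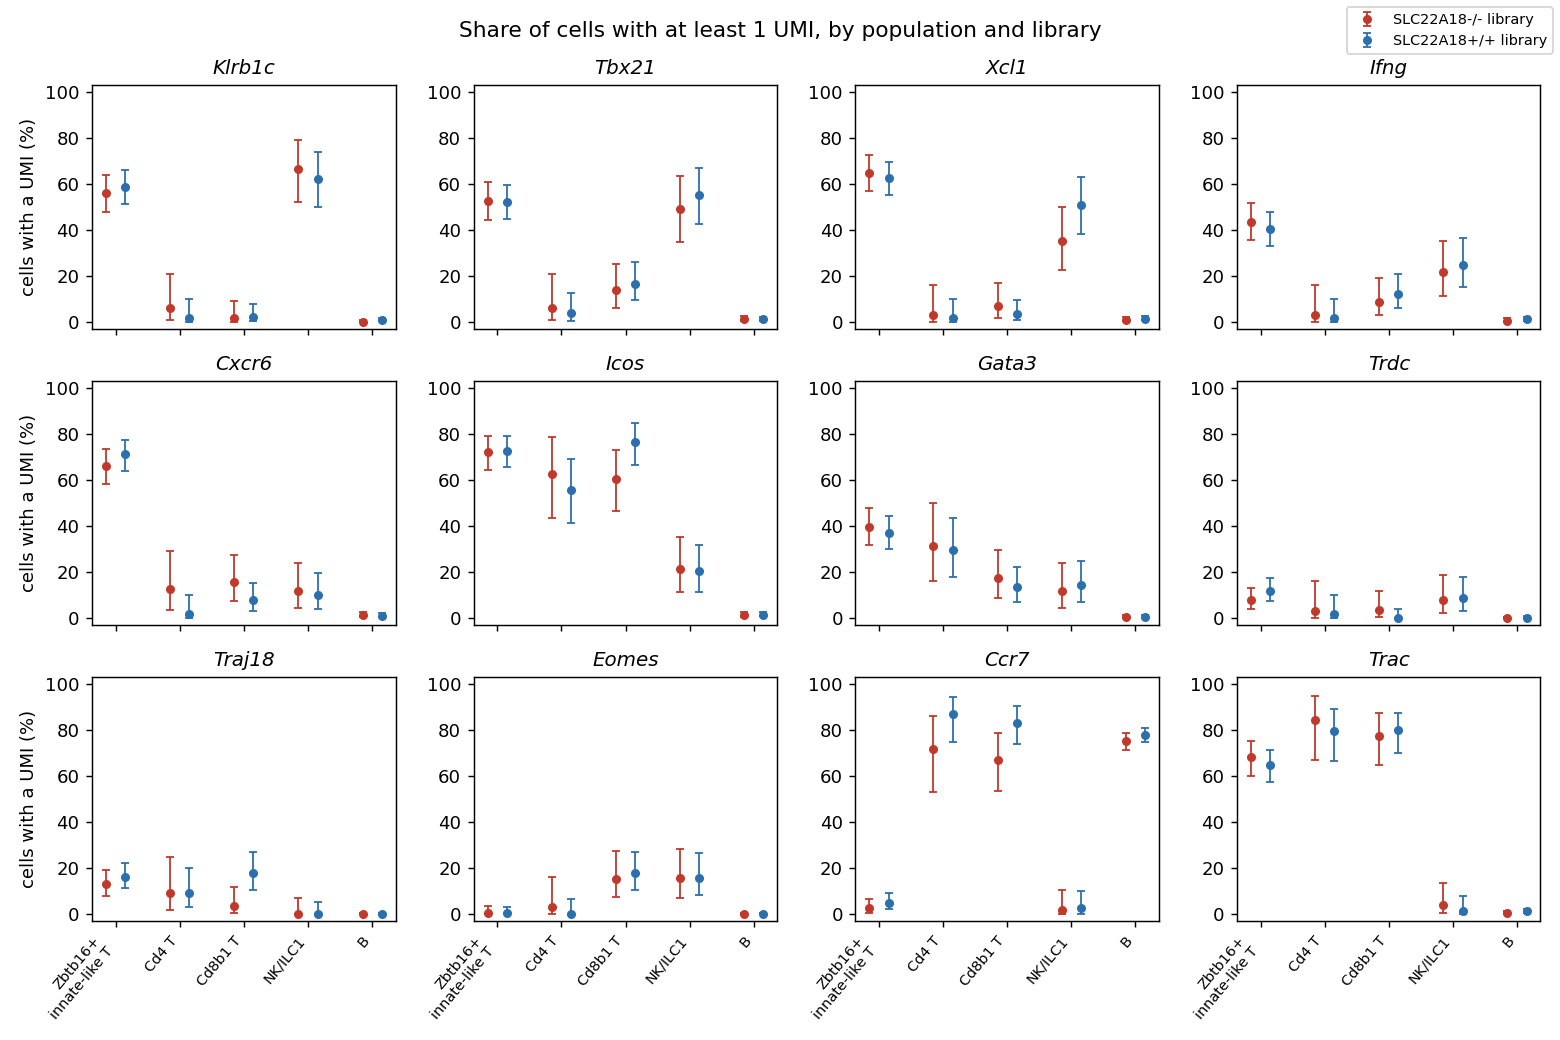
Share of cells with at least 1 UMI (percent, y axis) of 12 genes in 5 populations (x axis) of the SLC22A18-/- library (red) and the SLC22A18+/+ library (blue); bars are exact 95% intervals and cover counting error only. Klrb1c, Tbx21, Xcl1, Ifng and Cxcr6 are high in the innate-like T cells of both libraries and low in Cd4 T cells, while Ccr7, which marks recirculating lymphocytes, is below 5% in the innate-like T cells.

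NK cell receptor genes were higher in the innate-like T cells than in Cd4 and Cd8b1 T cells. Klrb1c (chr6:128778485-128789215, minus strand), which encodes the NK1.1 antigen, was detected in 55.8% (47.6 to 63.8) and 58.7% (51.2 to 65.9) of them, in 6.25% and 1.85% of Cd4 T cells, and in 66.7% and 62.3% of NK/ILC1 cells. At equal depth, with the 138 and 173 innate-like T cells of at least 3000 UMIs thinned to 3000, the shares were 42.8% and 49.1%. The 177 and 260 otherwise alike T cell barcodes with neither Zbtb16 nor Il4 held Klrb1c in 33.9% and 38.1%. They held Klrd1 in 44.1% and 130 of 260, and Tbx21 in 36.7% and 33.8%. The Cd4 T cells are the 32 and 54 of these barcodes that held Cd4, and the rest entered no test. As a whole these barcodes stood nearer to the innate-like T cells than their Cd4-positive part did. Against Cd4 T cells, 365 of the 7480 genes tested were higher (4.88%) and 228 lower (3.05%), where a call needed an edgeR adjusted p under 0.05 and at least a 2-fold difference the same way in both libraries. Of the 23 genes of the NK receptor list 16 passed the filter on low counts, and of these 15 were higher and none lower. Their median log2 difference was 4.35 (2.86 when genes at 0 in Cd4 T cells are set at their lower bound) against 0.02 over all genes. A gene could pass the filter through the innate-like T cells alone, and could then be called in that direction only. Klrk1, which encodes NKG2D, stood at 360 and 495 CPM in the innate-like T cells and at 0 and 33.6 CPM in Cd4 T cells (20.03-fold, log2 standard error 0.34, adjusted p = 1.09e-23). Cd160 stood at 175 and 212 CPM against 17.3 and 0 CPM (27.7-fold).

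The same receptors were higher than in Cd8b1 T cells, where 467 of 8021 genes were higher (5.82%) and 288 lower (3.59%). Here 17 of the 18 NK receptor genes that passed the filter were higher, with the same limit. Klrb1c itself stood at 245 and 267 CPM against 2.83 and 3.26 CPM (72.2-fold, log2 standard error 0.40, adjusted p = 7.73e-50). Klrd1, the CD94 chain, was the exception: it was detected in 70.7% and 63.3% of Cd8b1 T cells and was 1.53-fold higher in the innate-like T cells, short of a call. The Ly49 genes Klra5 and Klra1 were at 0 in Cd8b1 T cells and at least 59.4-fold and 30.6-fold higher in the innate-like T cells. Members of the Klra family are near copies of each other, so the share of UMIs that each received is uncertain.

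Against NK/ILC1 cells the receptor list ran the other way. There 171 of 7665 genes were higher (2.23%) and 256 lower (3.34%), and of 20 NK receptor genes 1 was higher and 10 were lower, with a median log2 difference of -1.17 against 0.02 over all genes. Klra8 stood at 2.13 and 5.47 CPM in the innate-like T cells and at 245 and 133 CPM in NK/ILC1 cells, and Klra4 at 2.13 and 0 CPM against 87.7 and 137 CPM. Klra1 was the receptor gene that was higher, 106 and 85.7 CPM against 5.84 and 12.5 CPM (10.5-fold, adjusted p = 1.15e-08). Klrb1c was 2.15-fold lower and not called, since the difference in the wild-type library was under 2-fold. The NK/ILC1 cells were shallower, with medians of 2609 and 2370 UMIs per cell; the comparison uses summed counts scaled to library size.

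**Figure D2:**
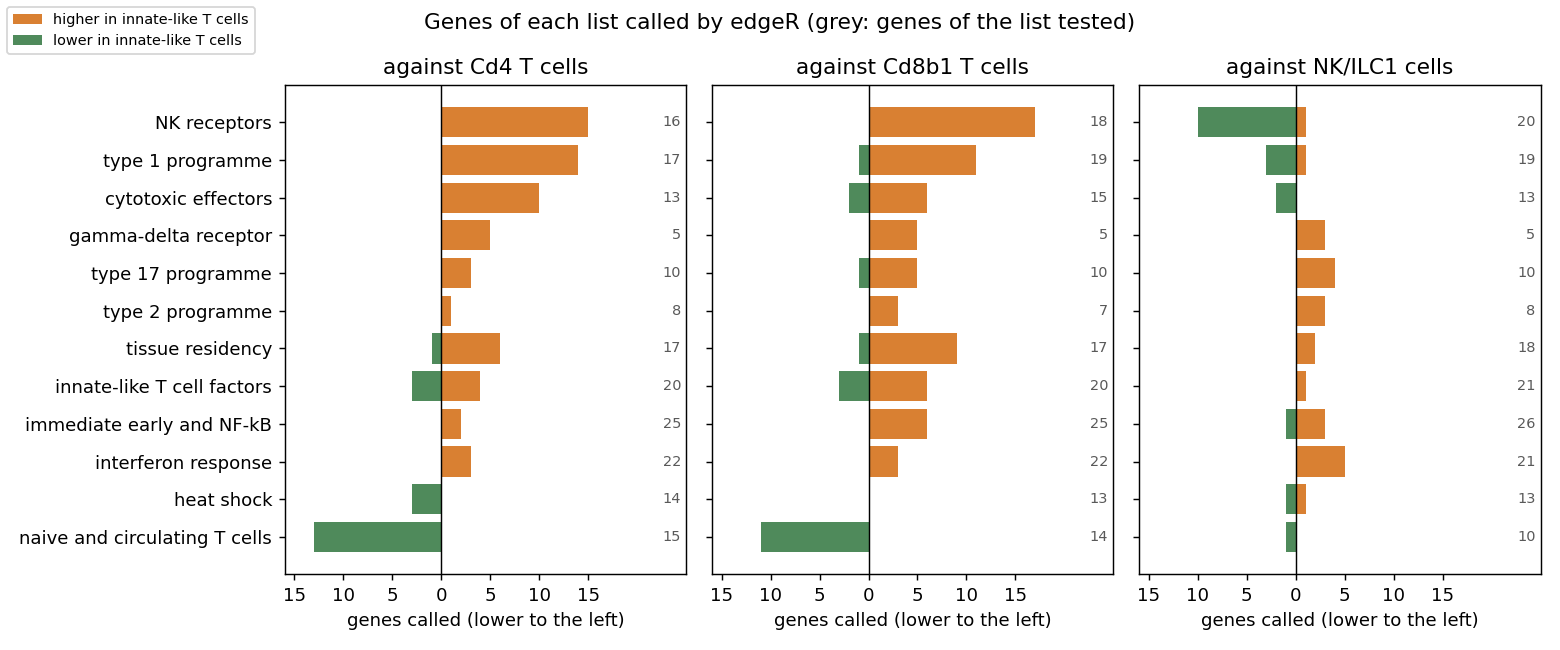
Number of genes of 12 lists (rows) that edgeR called higher (orange, to the right) or lower (green, to the left) in the innate-like T cells than in Cd4 T cells, Cd8b1 T cells and NK/ILC1 cells; the grey number is how many genes of the list were tested. NK receptors are mostly higher than in both other T cell populations (15 of 16 and 17 of 18) and mostly lower or not called against NK/ILC1 cells (10 of 20 lower).

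The transcription factors of the list of innate-like T cell regulators moved in part. Tbx21, which encodes T-bet, the factor of type 1 immunity, was detected in 52.6% and 52.2% of the innate-like T cells and stood at 218 and 219 CPM, against 23.1 and 6.72 CPM in Cd4 T cells (15.6-fold, adjusted p = 3.82e-15) and 53.8 and 57.1 CPM in Cd8b1 T cells (3.56-fold). Eomes, the related factor of NK cells and memory Cd8 T cells, was nearly absent: 1 UMI in each library, against 34.0 and 47.3 CPM in Cd8b1 T cells and 146 and 133 CPM in NK/ILC1 cells (39.4-fold and 106-fold lower). Rora stood at 895 and 755 CPM and was 3.80-fold higher than in Cd4 T cells. Maf was 7.35-fold higher than in Cd8b1 T cells. Tcf7, Lef1 and Myb, which act in naive and developing T cells, were lower than in both; Tcf7 stood at 70.3 and 76.5 CPM against 553 and 648 CPM in Cd4 T cells. Of the 20 genes of this list tested, 4 were higher and 3 lower against Cd4 T cells, 6 higher and 3 lower against Cd8b1 T cells, and of 21 tested against NK/ILC1 cells 1 was higher, the T lineage factor Bcl11b, and none lower. Over all genes the shares called higher and lower were 4.88% and 3.05%, 5.82% and 3.59%, and 2.23% and 3.34% in the same order, so the count against NK/ILC1 cells was near the background.

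Type 1 effector genes were high. Of 17 tested against Cd4 T cells, 14 were higher and none lower, with a median log2 difference of 3.49. Over all genes the median was 0.02, and 4.88% were higher and 3.05% lower. As for the NK receptors, a gene could pass the filter through the innate-like T cells alone and then be called higher only. Xcl1, a chemokine that attracts cross-presenting dendritic cells, stood at 685 and 722 CPM against 11.5 and 20.2 CPM in Cd4 T cells (38.6-fold, log2 standard error 0.31, adjusted p = 2.12e-35), and it was 38.8-fold higher than in Cd8b1 T cells. Ifng, interferon-gamma, was detected in 43.5% and 40.2% of the cells, against 3.12% and 1.85% of Cd4 T cells, 8.62% and 12.2% of Cd8b1 T cells and 0.549% and 1.17% of B cells. The chemokine Ccl5 stood at 4993 and 3778 CPM, against 409 and 312 CPM in Cd4 T cells (11.3-fold). The receptor chains through which type 1 cells sense interleukin-12 and interleukin-15 followed: Il12rb2 was 13.1-fold and Il2rb 11.2-fold higher than in Cd4 T cells. Against Cd8b1 T cells 11 of 19 genes of the list were higher and Eomes was lower. Over all genes 5.82% were higher and 3.59% lower. Of 19 tested against NK/ILC1 cells Ly6c2 was higher, and Eomes, Ccl3 and Il18rap were lower. Over all genes 2.23% were higher and 3.34% lower. Ifng was 1.03-fold different (edgeR adjusted p = 0.96). T cell barcodes with neither Zbtb16 nor Il4 held Ccl5 at 6306 and 5925 CPM, above the innate-like T cells. They held Xcl1 at 522 and 614 CPM and Tbx21 at 195 and 191 CPM, nearer to the innate-like T cells than Cd4 T cells were. Ifng was found in 15.8% and 21.5% of them.

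The cytotoxic genes were split. Gzmb stood at 1368 and 932 CPM, against 57.7 and 63.8 CPM in Cd4 T cells and 212 and 47.3 CPM in Cd8b1 T cells (16.6-fold and 9.24-fold higher), and Fasl, the ligand that triggers death through Fas, was 7.17-fold higher than in Cd8b1 T cells. Gzmm and Gzmk had 0 UMIs in the innate-like T cells and were at least 15.4-fold and 11.9-fold lower than in Cd8b1 T cells. Prf1, the pore-forming protein, stood at 52.2 and 43.7 CPM against 286 and 316 CPM in NK/ILC1 cells (5.70-fold lower, adjusted p = 6.40e-20). In all, 10 of 13 genes of the list were higher than in Cd4 T cells. Against Cd8b1 T cells 6 of 15 were higher and 2 lower. Against NK/ILC1 cells 2 of 13, Prf1 and the granzyme inhibitor Serpinb9, were lower. Over all genes 4.88% and 5.82% were higher than in Cd4 and Cd8b1 T cells, and 3.59% and 3.34% lower than in Cd8b1 T and NK/ILC1 cells. Genes at 0 in a population, such as Gzmm and Gzmk, could be called lower in that population only.

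Among the homing genes, Cxcr6, the chemokine receptor of patrolling liver NKT cells, was detected in 66.2% and 71.2% of the innate-like T cells at 282 and 344 CPM. It was 8.29-fold higher than in Cd4 T cells, 12.4-fold higher than in Cd8b1 T cells and 6.79-fold higher than in NK/ILC1 cells (adjusted p = 7.09e-20), although the fold over Cd4 T cells differed between the libraries (86.5 CPM in Cd4 T cells of the knockout library and 3.36 CPM in those of the wild type). Rgs1, a signalling brake of resident lymphocytes, was 6.53-fold higher than in Cd4 T cells. Ccr7, which admits lymphocytes to lymph nodes, and S1pr1, which lets them leave, were both lower than in both T cell populations. Ccr7 stood at 13.9 and 28.2 CPM against 605 and 679 CPM in Cd4 T cells (32.3-fold lower, adjusted p = 2.23e-42). Of the naive and circulating T cell list, 13 of 15 genes were lower than in Cd4 T cells, none higher. Against Cd8b1 T cells 11 of 14 were lower, none higher. Over all genes 3.05% and 3.59% were lower in the same order.

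Genes of T cell help and T cell identity were higher in the innate-like T cells than in NK/ILC1 cells. These populations were split by their Cd3 UMIs, so a difference in T cell genes follows in part from the gates. Cd40lg, the ligand that helps B cells and dendritic cells, stood at 120 and 148 CPM against 0 in both NK/ILC1 libraries (at least 18.6-fold higher), and Icos, a co-stimulator, at 843 and 891 CPM against 123 and 74.7 CPM (10.04-fold, adjusted p = 5.86e-57). The surface proteins Cd6 and Cd5 were at 0 in NK/ILC1 cells and at least 28.1-fold and 11.1-fold higher. Slamf1, a receptor of the family needed for NKT cell selection, was at least 6.48-fold higher. Slamf6 of the same family was 5.12-fold higher than in NK/ILC1 cells but 5.68-fold lower than in Cd4 T cells. Its level was 49.0 and 62.9 CPM against 282 and 312 CPM in Cd4 T cells. Cd40lg, Cd6, Cd5 and Slamf1 had 0 UMIs in NK/ILC1 cells, so they passed the filter on low counts through the innate-like T cells alone. Each could be called in that direction only.

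Il5, Il13 and Il17a were sparse. Il4, a type 2 cytokine that the rule used, was detected in 22.1% and 23.9% of the cells. With Zbtb16 alone as the gate the shares were 21.1% and 22.7%. As a gate gene Il4 was left out of the counts that follow. Of the 19 genes of the type 2 list only 8 passed the filter on low counts against Cd4 T cells, and 1 was higher, Plac8 (7.53-fold), which was also detected in 64.5% and 67.4% of B cells. Against Cd8b1 T cells 3 of 7 were higher, the chemokine receptor Ccr4, Gata3 and Icos, and against NK/ILC1 cells 3 of 8, Ccr4, Icos and Plac8, with none lower. Of 10 genes of the type 17 list tested, 3 were higher than in Cd4 T cells, 5 higher and 1 lower than in Cd8b1 T cells, and 4 higher than in NK/ILC1 cells. Those that were higher included Ckb, a creatine kinase, Lgals3, a galectin, and the transcription factors Rora and Maf. The lower gene was the integrin chain Itgae. Over all genes 4.88%, 5.82% and 2.23% were higher against Cd4 T, Cd8b1 T and NK/ILC1 cells, and 3.05%, 3.59% and 3.34% lower. Il13 gave 2 UMIs in the knockout library and 0 in the wild-type library. Il17a, the type 17 cytokine, was concentrated: 24 UMIs in 1 cell of the knockout library and 8 UMIs in 2 cells of the wild-type library.

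Within the population, cells with many Zbtb16 UMIs differed from cells with 1. In the knockout library 38 cells had 1 Zbtb16 UMI, 32 had 2 to 4 and 82 had 5 or more; in the wild-type library these were 48, 55 and 78. Icos was detected in 36.8%, 62.5% and 92.7% of them in the knockout library and in 41.7%, 74.5% and 91.0% in the wild-type library. Trac followed the same order, from 44.7% to 81.7% in the knockout library and from 39.6% to 82.1% in the wild type, as did Cd40lg, from 10.5% to 54.9% and from 18.8% to 52.6%. Il4, which shares a place in the rule, was detected in 7.89% and 8.33% of cells with 1 Zbtb16 UMI and in 26.8% and 30.8% of cells with 5 or more.

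Other genes ran in the opposite direction. Itga1, the CD49a integrin chain of resident cells, was detected in 68.4% (26 of 38), 16 of 32 and 25.6% (21 of 82) of cells in that order in the knockout library and in 60.4%, 50.9% and 32.1% in the wild type. T cell barcodes with neither Zbtb16 nor Il4 held Itga1 in 36.2% and 38.5%, below the cells with 1 UMI. It is also present in 48.8% and 46.4% of barcodes without Cd3 UMIs and in 10.8% and 14.1% of B cells. In the knockout library Ccl5 stood at 11520 CPM in cells with 1 UMI and at 2020 CPM in cells with 5 or more. In the wild type it stood at 8013 and 1650 CPM. T cell barcodes with neither Zbtb16 nor Il4 held Ccl5 at 6306 and 5925 CPM, between these classes. Cd8a was detected in 18.4% and 18.8% of cells with 1 UMI and in 1.22% and 0% of cells with 5 or more. Ccr7 was found in 7.89% and 12.5% of the cells with 1 Zbtb16 UMI, against 34.5% and 38.5% of T cell barcodes with neither Zbtb16 nor Il4. Median depth was 5330, 5924 and 6539 UMIs in the knockout library and 5278, 4903 and 6394 in the wild type, and its part in these orders was not tested.

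**Figure D3:**
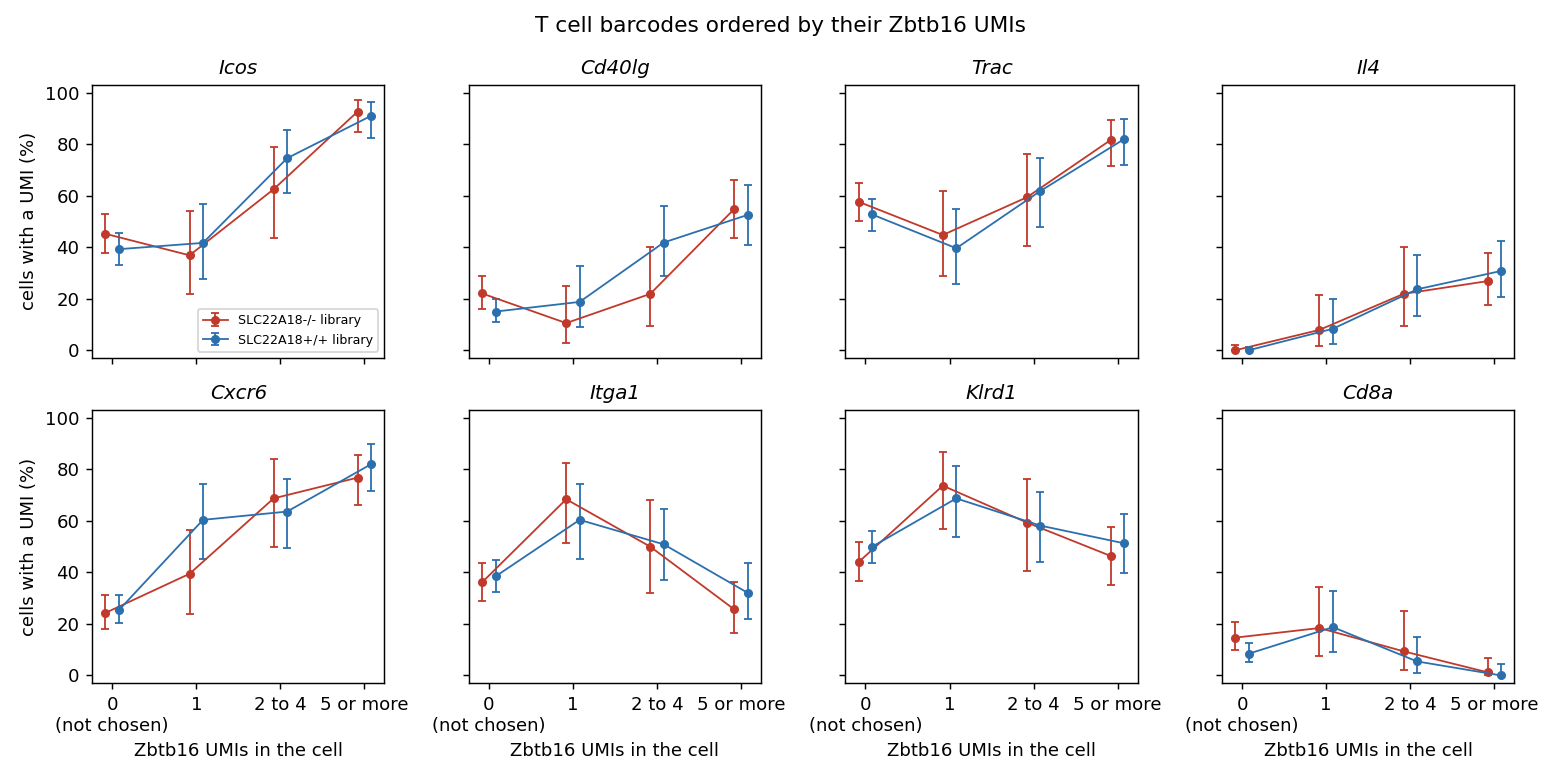
Share of T cell barcodes with at least 1 UMI (percent, y axis) of 8 genes, by the number of Zbtb16 UMIs in the barcode (x axis; the leftmost class has neither Zbtb16 nor Il4 and was not chosen) in the SLC22A18-/- library (red) and the SLC22A18+/+ library (blue), with exact 95% intervals. Icos reaches 92.7% and 91.0% in the class with 5 or more UMIs, where Itga1 is at 25.6% and 32.1%.

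Detection of gene pairs in the same cells gave a like picture. Of the NK cell genes, Ncr1 and Klrd1 were at lower shares in cells with Il4 and Klrb1c was not, none of it tested: Ncr1, an NK activating receptor, was found in 0 of 34 and 0 of 44 of them, against 24 of 120 and 20 of 140 cells without Il4, and Klrd1 in 35.3% and 36.4% against 60.8% and 64.3%, whereas Klrb1c was found in 52.9% and 59.1% against 56.7% and 58.6%. They held Icos in 91.2% and 93.2% and Cxcr6 in 85.3% and 84.1%, against 66.7% and 66.4% for Icos and 60.8% and 67.1% for Cxcr6 in the rest. Ifng was detected in 55.9% and 45.5% of the Il4-positive cells and in 40.0% and 38.6% of the rest.

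The shares of some genes were further apart between cells with and without Klrb1c than those of Trac or Il4. Xcl1 was detected in 83.7% and 74.1% of cells with Klrb1c and in 41.2% and 46.1% of cells without, and Gzmb in 62.8% and 56.5% against 23 of 68 and 19 of 76. Themis, a signalling protein of T cell selection, was found in 24.4% and 30.6% of cells with Klrb1c and in 55.9% and 59.2% of cells without. Trac was at 68.6% and 63.9% with Klrb1c and at 67.6% and 65.8% without, and Il4 at 20.9% and 24.1% with and 23.5% and 23.7% without.

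The few cells with Trdc had other shares of Itga1 and Icos than the rest, none of it tested. Itga1 was found in 83.3% and 81.8% of the 12 and 22 cells with Trdc, against 38.0% and 40.1% of the rest, and Icos in 33.3% and 45.5% against 75.4% and 76.5%. Il4 was found in 1 such cell in each library. Cells with Cd4, 14.3% and 16.3% of the population, held Gata3 in 63.6% and 53.3%, against 47 of 132 and 52 of 154 cells without Cd4. These shares within the population are descriptions of single cells, which are not replicates, and carry no test.

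At full depth the shares of innate-like T cells in the 2 genotypes differed by less than counting error. In the knockout library 1.34% (1.14 to 1.57) of the kept barcodes belonged to them and in the wild type 1.48% (1.28 to 1.71); the ratio was 0.908 (0.734 to 1.12). Among barcodes with at least 2 Cd3 UMIs the shares were 23.4% (20.2 to 26.8) and 22.2% (19.4 to 25.2), with a ratio of 1.05 (0.872 to 1.27). Thinning to 3000 UMIs kept only barcodes with at least 3000 UMIs, 8219 and 8437, and the rule applied to them again chose 144 and 188. These are not all the same cells as at full depth. The ratio over these barcodes was 0.786 (0.634 to 0.975), an interval that leaves out 1. Over those of them with at least 2 Cd3 UMIs it was 0.959 (0.798 to 1.15). For the subsets the intervals included 1: the ratio of the knockout to the wild-type share was 0.951 (0.790 to 1.15) for Klrb1c, 0.876 (0.528 to 1.45) for Cd4, 0.923 (0.623 to 1.37) for Il4, 1.07 (0.817 to 1.41) for Gata3 and 0.652 (0.333 to 1.27) for Trdc. These intervals also hold sizeable differences, so equality was not shown.

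Few genes differed by size between the genotypes. A gene was listed when it had at least 50 summed UMIs, a ratio of at least 2 with an exact interval that left out 1, detection in 5% or more of these cells where it was higher, and, in at least 1 library, a level no lower than that of barcodes without Cd3 UMIs, a guard against free RNA. Of 5757 genes tested, 11 were higher in the knockout library (0.191%) and 8 lower (0.139%), and the median log2 ratio over all genes was -0.00097. None of the genes in the 23 lists was among them. Type 1 genes had a median log2 ratio of 0.0017, tissue residency genes of -0.09 and NK receptors of -0.11; Ifng stood at 158 CPM in the knockout library and 186 CPM in the wild type, and Tbx21 at 218 and 219 CPM. Ascl2, named with beta-catenin in the series title, had 0 UMIs in these cells in both libraries.

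**Figure D4:**
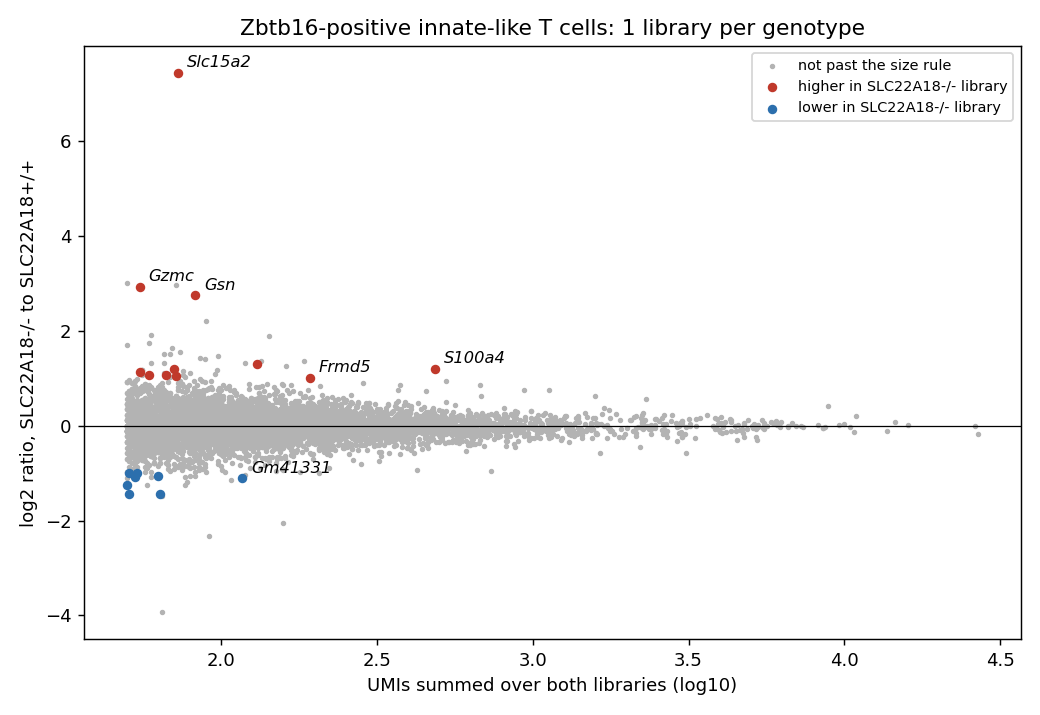
Log2 ratio of SLC22A18-/- to SLC22A18+/+ (y axis) against the UMIs summed over both libraries (x axis, log10) for the 5757 genes tested in the innate-like T cells; red and blue points are the 11 and 8 genes past the size rule. Slc15a2 stands alone at the top, S100a4 has the most UMIs of the genes past the rule, and most of the others lie near the limit of 50 UMIs.

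Slc15a2 (chr16:36750177-36784962, minus strand), a proton-coupled peptide transporter, gave 73 UMIs in 45 of the 154 cells of the knockout library and 0 in the 184 cells of the wild-type library; the exact interval of the ratio began at 22.6. The difference was not particular to these cells. Slc15a2 was detected in 31.2% of Cd4 T cells, 41.4% of Cd8b1 T cells, 15.7% of NK/ILC1 cells and 42.7% of B cells of the knockout library, and in 0%, 0%, 0% and 0.521% of those of the wild type.

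S100a4 (chr3:90603771-90606045, plus strand), a calcium-binding protein of motile and effector lymphocytes, was detected in 77 of 154 cells with 322 UMIs in the knockout library and in 63 of 184 cells with 164 UMIs in the wild type. That was 343 CPM against 149 CPM, a ratio of 2.30 (1.90 to 2.79). A single cell of the knockout library held 31 of the UMIs, and the ratio was 2.09 without it. Cd4 T cells stood at 57.7 and 70.5 CPM, Cd8b1 T cells at 173 and 116 CPM and NK/ILC1 cells at 175 and 187 CPM, so the ratios in those populations were nearer to 1; a difference between populations was not tested, since there is 1 library per genotype. By Zbtb16 class, S100a4 stood at 503, 446 and 251 CPM in the knockout library and at 257, 85.7 and 136 CPM in the wild type, higher in the knockout library in each of the 3 classes.

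The other large ratios rested on few cells. Gsn, an actin-severing protein (chr2:35256380-35307892, plus strand), had 71 UMIs in 13 cells of the knockout library and 12 UMIs in 11 cells of the wild type, but 59 of the 71 came from 1 cell, and without it the ratio was 1.19 in place of 6.92. Gzmc (chr14:56231441-56234656, minus strand), a granzyme of strongly activated lymphocytes, had 48 UMIs in 12 cells against 7 UMIs in 5 cells, a ratio of 8.02 (3.61 to 21.0); 22 of them were in 1 cell, and the ratio was 4.38 without it. In NK/ILC1 cells Gzmc ran the other way, at 11.7 CPM in the knockout library and 174 CPM in the wild type. Frmd5 had 122 UMIs in 13 cells against 71 in 14 cells, with 45 in 1 cell, and its ratio was 1.28 without that cell.

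The remaining genes higher in the knockout library were Fbxo42, Zmpste24, Ints14, Cdkn2aipnl, Atg2b and ENSMUSG00000121360, and those lower were Nxpe3, Tmem161b, Mettl15, Gm41331, Hspa4l, Mbnl3, Gm32036 and Meaf6. Their ratios lay between 2.07 and 2.48 for the higher genes and between 0.358 and 0.492 for the lower. The highest, ENSMUSG00000121360, had 32 of its UMIs in 1 cell of the knockout library and a ratio of 1.60 without it, and Atg2b, Cdkn2aipnl and Ints14 stood between 1.86 and 1.97 without their top cell, all under the ratio of 2 that the rule asks for. Of the lower genes, Hspa4l, Mbnl3 and Gm41331 stood at 0.562, 0.523 and 0.512. With a minimum of 100 summed UMIs, 3 genes were higher and 1 lower. Nxpe3 had the lowest ratio, with 15 UMIs in the knockout library and 49 in the wild type (0.358, 0.186 to 0.649). Gm41331 had the most UMIs of the lower genes, 33 and 84 (0.459, 0.297 to 0.695).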

How the data were processed

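Droplet 3' single-cell libraries were counted by the authors with Cell Ranger 8.0.1, per the file headers, on mm10 with STAR, per the submitters' processing notes. The deposited values are whole UMI counts per gene and barcode, not normalized, for 33696 genes. The counting annotation is not given in the sources used here; 32012 identifiers matched GENCODE vM21 (GRCm38), from which positions were taken.

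The cells and the gene lists were chosen with earlier results of these data known. UMIs were summed per library and population. Populations were compared with edgeR 4.0.16 (quasi-likelihood, TMM, library as a block, Benjamini-Hochberg over all genes tested) on 2 libraries, with 1 residual degree of freedom. Nothing says that the libraries came from separate animals of one group, so p-values measure the spread between these libraries only. Gate genes stayed in the fit but were neither counted nor named. A gene passed the filter on low counts if it reached the minimum in either population. One admitted through a single population could be called higher in that population only. Genotypes were compared by ratios of CPM with exact (Clopper-Pearson) 95% intervals, and shares with exact binomial intervals. In the comparisons of populations, UMI counts at 0 were bounded by 3 UMIs over both libraries together. The fitted steps were tested on simulated data. No doublet caller was run, and the lineage exclusions of the rule and a wider lineage exclusion stood in for one. The wider exclusion dropped barcodes with any UMI of Cd79b, Ms4a1, Vsig4, Cd5l, Csf1r or Clec4g, or with more than 20000 UMIs. No hepatocyte gene was used in it.

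Genes named by size were the 12 largest in each direction or the called members of each list, up to 4 per direction; other genes named here, such as Klrd1 or the genes given by subset, were chosen after their values were seen. Alternatives covered filters, gates, count minimums, scaling, thinning to 3000 UMIs, DESeq2 1.42.0 and, added after seeing the data, leaving out the cell with the most UMIs of a gene.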

Additional observations from a re-analysis of the deposited data

How the results depend on the processing

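The share of innate-like T cells kept a ratio of the genotypes whose interval includes 1 under the 7 alternatives run for it, with 1 exception. That was the share of the barcodes with at least 3000 UMIs, thinned to 3000. The shares of the subsets did so under the 2 run for them, thinning and Zbtb16 alone as the gate. Calls between the genotypes depended on the setting. The number of genes higher in the knockout library was 19 under the wider lineage exclusion and 48 with a minimum of 20 summed UMIs. It was 3 with 100, 42 without the guard against free RNA and 6 after thinning. The number lower was 14 with at least 2 Zbtb16 and Il4 UMIs, 30 with the lineage exclusion and 55 with 20 UMIs. It was 1 with 100, 22 without the guard and 19 with each cell weighted equally. Under the lineage exclusion Gsn, Frmd5 and S100a4 alone of the genes called reached 50 UMIs, and Gsn and S100a4 were called; the other genes, Slc15a2 and those lower among them, were not tested there. Frmd5 reversed to a log2 ratio of -0.72 there; the cause was not tested. S100a4 ranged from 1.06 to 1.36 on the log2 scale over the alternatives. Without the cell with the most UMIs of the gene, Gsn fell to 0.25, Frmd5 to 0.36 and ENSMUSG00000121360 to 0.68.

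Against other populations, DESeq2 called 139 higher and 114 lower genes for Cd4 T cells, 182 and 141 for Cd8b1 T cells, and 49 and 91 for NK/ILC1 cells. With the lineage exclusion 243 were higher than in Cd4 T cells, and 66 were higher and 70 lower than in NK/ILC1 cells. Of 1355 values of named genes under these alternatives, 1234 kept direction and call, 121 kept direction alone and 0 reversed. Populations were paired by library in the fit; without the library term the counts stayed within 1.5 times. Leaving out a library leaves no residual degrees of freedom, so it gave no test. With 154 and 184 cells, genes under 50 summed UMIs were not compared between genotypes.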

Other observations

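Genes of activation and survival also differed between populations. Of 25 immediate early and NF-kB genes tested against Cd8b1 T cells, 6 were higher in the innate-like T cells and none lower, where 5.82% of all genes were higher. Against Cd4 T cells 2 of 25 were higher and none lower (4.88% of all genes higher), and against NK/ILC1 cells 3 of 26 were higher and 1, Cd83, lower (2.23% and 3.34%). Dusp1, a phosphatase induced by stress and by receptor signals, stood at 847 and 1003 CPM against 141 and 214 CPM (4.69-fold, edgeR adjusted p = 1.51e-49), and it was 2.47-fold higher than in NK/ILC1 cells. Fos and Jun were 3.34-fold and 3.02-fold higher than in NK/ILC1 cells. Part of such signal can arise while tissue is dissociated, and the share that did was not tested; B cells of the same libraries held Fos at 915 and 827 CPM and the innate-like T cells at 659 and 754 CPM. The BCL2 family genes Bcl2a1b and Bcl2a1d were 6.49-fold and 8.46-fold higher than in Cd4 T cells.

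Interferon-induced genes were higher against NK/ILC1 cells for 5 of 21 tested, none lower, where 2.23% of all genes were higher and 3.34% lower. Ly6a, the Sca-1 antigen, stood at 273 and 238 CPM against 0 and 29.1 CPM, and Ifi27l2a at 534 and 511 CPM against 40.9 and 66.4 CPM (10.4-fold). Against Cd4 T cells and against Cd8b1 T cells 3 of 22 were higher and none lower, where 4.88% and 5.82% of all genes were higher. Isg15 was 7.97-fold higher than in Cd4 T cells. Entpd1, the CD39 ectoenzyme, was 3.85-fold higher than in Cd4 T cells and 7.79-fold higher than in Cd8b1 T cells, while Ctla4 was 3.63-fold and 2.39-fold lower. In both libraries the cells with Traj18 held Icos in 18 of 20 and 27 of 30, against 69.4% and 69.5% of cells without it.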
